A study of Homo sapiens with 9 samples.

Results

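The MYC and MAX network was examined here as 10 genes: MYC, MYCN, MYCL, MAX, MXD1, MXD3, MXD4, MXI1, MNT and MLX. The members were listed by name and matched by symbol to the Ensembl identifiers. All 10 were found among the 52165 identifiers that the count tables of both cell lines share. The libraries come from Kyse150 and TE11, established lines of human esophageal squamous cell carcinoma. The lines carried a lentiviral control shRNA (shNC) or an shRNA against KDM2A, a histone H3 lysine 36 demethylase, and grew in RPMI medium with 10% serum. There were 2 Kyse150 control, 2 Kyse150 knockdown and 3 TE11 control libraries, and 2 libraries labelled TE11 knockdown. The labels name 1 control and 1 KDM2A shRNA, so effects of the shRNA itself and of less KDM2A cannot be told apart. They do not say what was repeated to make a replicate, so the p-values cover library-to-library spread alone, and that may be technical. In these bulk cultures, fewer cells of a kind and less RNA per cell cannot be told apart.

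MYC, MYCN and MYCL are transcription factors that bind DNA as partners of MAX and switch on genes for ribosome production, nucleotide synthesis and cell division. The MXD proteins, MXI1 and MNT also pair with MAX, compete for the same E-box sequence, CACGTG, and recruit SIN3 and histone deacetylase complexes that silence genes. MLX is a MAX-like partner of some of these repressors and of the glucose-sensing factors MLXIP and MLXIPL. In squamous epithelium MYC is known from dividing basal cells, and MXD1 from cells that leave the cycle to differentiate.

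The labels were checked before the network was read. KDM2A was lower in the Kyse150 knockdowns (log2 fold change -0.71, SE 0.07; edgeR quasi-likelihood test, adjusted p = 3.87e-09). In TE11 it was not lower under the knockdown label (0.16, SE 0.07; edgeR adjusted p = 0.0335). That call was lost under 8 of 12 alternatives: the adjusted p was 0.0772 with control 2 left out, 0.0969 with control 3 and 0.398 with labelled knockdown 2 left out, 0.185 with upper-quartile scaling, 0.0546 without the filter on low counts, 0.142 with a stricter filter, 0.0838 with the replicate number as a block (all edgeR) and 0.0739 by DESeq2. The TE11 log2 difference of KDM2A was 0.10 to 0.24 over the 12. Across 12086 coding genes, the correlation of the libraries labelled TE11 knockdown was 0.781 to 0.783 with controls of their own line and 0.923 to 0.928 with those of Kyse150. Against the Kyse150 controls, KDM2A was called lower by edgeR in the libraries labelled TE11 knockdown (log2 -0.29) and in the TE11 controls (-0.47). With labelled knockdown 1 left out, the first value was -0.21 and the call was lost. The 2 libraries labelled knockdown are the whole group, so no TE11 comparison can be made without them. Every TE11 direction given here is that of libraries whose label KDM2A goes against when set beside the TE11 controls. All 10 squamous markers examined held counts in every group, with a summed level of 2339 to 2581 CPM outside the TE11 controls and 5545 to 5981 CPM in them. The 7 columnar markers summed to 2827 to 3174 CPM in the TE11 controls and to 6330 to 7622 CPM elsewhere. Their sum thus moved opposite to the squamous sum in TE11, but only 3 of the 7 reached a mean of 1 CPM in each group. CDX1 and CDX2 were at 0 in every group, and KRT20 was at 0 outside the TE11 controls. The 7 fibroblast markers summed to 18.9 to 21.9 CPM in the TE11 controls and 2.81 to 3.84 CPM in the libraries labelled knockdown (6.25 to 6.58 CPM in the Kyse150 controls and 10.7 to 11.5 CPM in the knockdowns). The 4 endothelial markers in both tables went from 7.07 to 9.33 CPM down to 1.10 to 1.86 CPM in TE11, with 1.39 to 2.86 CPM in Kyse150. Leukocyte markers summed to 0.778 to 1.95 CPM over all libraries, with counts for 4 of 6 in every group and PTPRC at 0 throughout. The part of these marker differences in the results was not tested. Depth was 6052883 to 7167055 gene counts a library for Kyse150, and 8457767 to 12073098 for TE11.

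Promoter sequences are shown for the 5 members that were higher in the Kyse150 knockdowns (MYCL, MXD1, MXD4, MXI1 and MNT) and for MLX, because KDM2A is known to bind unmethylated CpG and the network's own proteins bind E-boxes. Each run is the 250 bases before a RefSeq start in GRCh38.p14, 5′ to 3′ on the gene's strand, with CACGTG in capitals. For MXI1 it is 1 of 3 starts. The choice was made with the values seen. MLX, which was lower in those knockdowns, is the remaining matched member with an E-box, and MXD3, also lower, is not shown. The windows shown thus do not stand for the whole network.
MYCL, chr1:39901918-39902167, minus strand: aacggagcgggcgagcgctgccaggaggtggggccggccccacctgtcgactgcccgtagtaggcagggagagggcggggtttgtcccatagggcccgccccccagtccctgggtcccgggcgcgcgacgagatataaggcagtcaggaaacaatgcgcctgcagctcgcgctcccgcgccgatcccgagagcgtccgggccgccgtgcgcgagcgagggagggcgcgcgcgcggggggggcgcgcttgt
MXD1, chr2:69914859-69915108, plus strand: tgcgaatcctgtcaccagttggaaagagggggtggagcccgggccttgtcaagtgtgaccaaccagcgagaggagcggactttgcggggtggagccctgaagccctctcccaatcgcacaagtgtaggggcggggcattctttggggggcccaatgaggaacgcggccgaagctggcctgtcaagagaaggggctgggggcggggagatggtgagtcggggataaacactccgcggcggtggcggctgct
MXD4, chr4:2262110-2262359, minus strand: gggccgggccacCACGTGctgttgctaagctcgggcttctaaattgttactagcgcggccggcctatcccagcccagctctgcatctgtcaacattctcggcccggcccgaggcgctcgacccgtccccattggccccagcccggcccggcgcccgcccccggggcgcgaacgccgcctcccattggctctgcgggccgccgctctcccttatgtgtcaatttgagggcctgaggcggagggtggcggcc
MXI1, chr10:110207355-110207604, plus strand: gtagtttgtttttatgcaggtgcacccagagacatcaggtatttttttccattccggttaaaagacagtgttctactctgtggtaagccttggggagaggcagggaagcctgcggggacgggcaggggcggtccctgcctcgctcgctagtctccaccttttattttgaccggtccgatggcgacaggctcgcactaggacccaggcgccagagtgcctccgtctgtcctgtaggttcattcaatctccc
MNT, chr17:2401061-2401310, minus strand: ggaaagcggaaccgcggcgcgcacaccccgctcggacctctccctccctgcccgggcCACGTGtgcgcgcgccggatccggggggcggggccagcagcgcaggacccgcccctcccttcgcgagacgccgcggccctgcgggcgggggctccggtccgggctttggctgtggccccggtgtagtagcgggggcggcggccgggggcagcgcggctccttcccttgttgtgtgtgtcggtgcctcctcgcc
MLX, chr17:42566850-42567099, plus strand: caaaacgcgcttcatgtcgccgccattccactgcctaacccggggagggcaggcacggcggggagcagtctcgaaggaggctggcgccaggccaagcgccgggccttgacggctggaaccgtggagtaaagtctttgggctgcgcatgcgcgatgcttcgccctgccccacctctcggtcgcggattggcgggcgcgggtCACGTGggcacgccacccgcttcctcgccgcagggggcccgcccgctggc

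The E-box CACGTG, which reads the same on both strands, was searched in 9 of the 10 members, since 9 matched the RefSeq promoter table. MXD4, MNT and MLX held 1 each, and MYCL, MYCN, MAX, MXD1, MXD3 and MXI1 held none in these windows. Of all 35116 windows of this length, 6.345% held the motif. Counted by gene, as the members are here, it was 7.728% of 27305 genes. CpG dinucleotides numbered 35 in the windows of MYCL and MNT, 30 in that of MLX, 26 in that of MXD4, 16 in that of MXD1 and 12 in the MXI1 window shown. The windows not shown held 10 for MXD3, 11 for MYCN, 15 and 18 at the starts of MAX, and 28 and 24 at the other MXI1 starts. The median over all windows was 11. These matches are a description of the sequence and were not tied to binding.

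In Kyse150, 5 of the 9 members tested were higher in the knockdown and 3 were lower by edgeR's quasi-likelihood test with an adjusted p under 0.05. MXI1, MYCL, MXD4, MXD1 and MNT rose, and MYC, MLX and MXD3 fell. Of all genes tested in Kyse150, 48.2% were called, 24.8% higher and 23.3% lower, so a single call carries little by itself. In TE11, 3 of 9 were higher in the libraries labelled knockdown (MXD3, MXD1 and MLX) and 5 were lower (MYC, MXI1, MNT, MXD4 and MAX), where 78.1% of all genes were called, 35.9% higher and 42.2% lower. MYC was lower and MXD1 higher in both lines. MLX and MXD3 were lower in Kyse150 and higher in TE11, and MXI1, MXD4 and MNT were the other way round. Of 13276 genes tested in both lines, 15.2% were lower in Kyse150 and higher in TE11, 13.7% the reverse, 4.69% lower in both and 6.47% higher in both. The 2 responses differed by edgeR's test for 7 of the 9, with 2 higher in TE11 (MXD3 and MLX) and 5 lower (MYC, MYCL, MXD4, MXI1 and MNT), where 66.9% of all genes were called, 33.8% higher and 33.1% lower. MYCN, the tenth member, was too low to test.

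**Figure D1:**
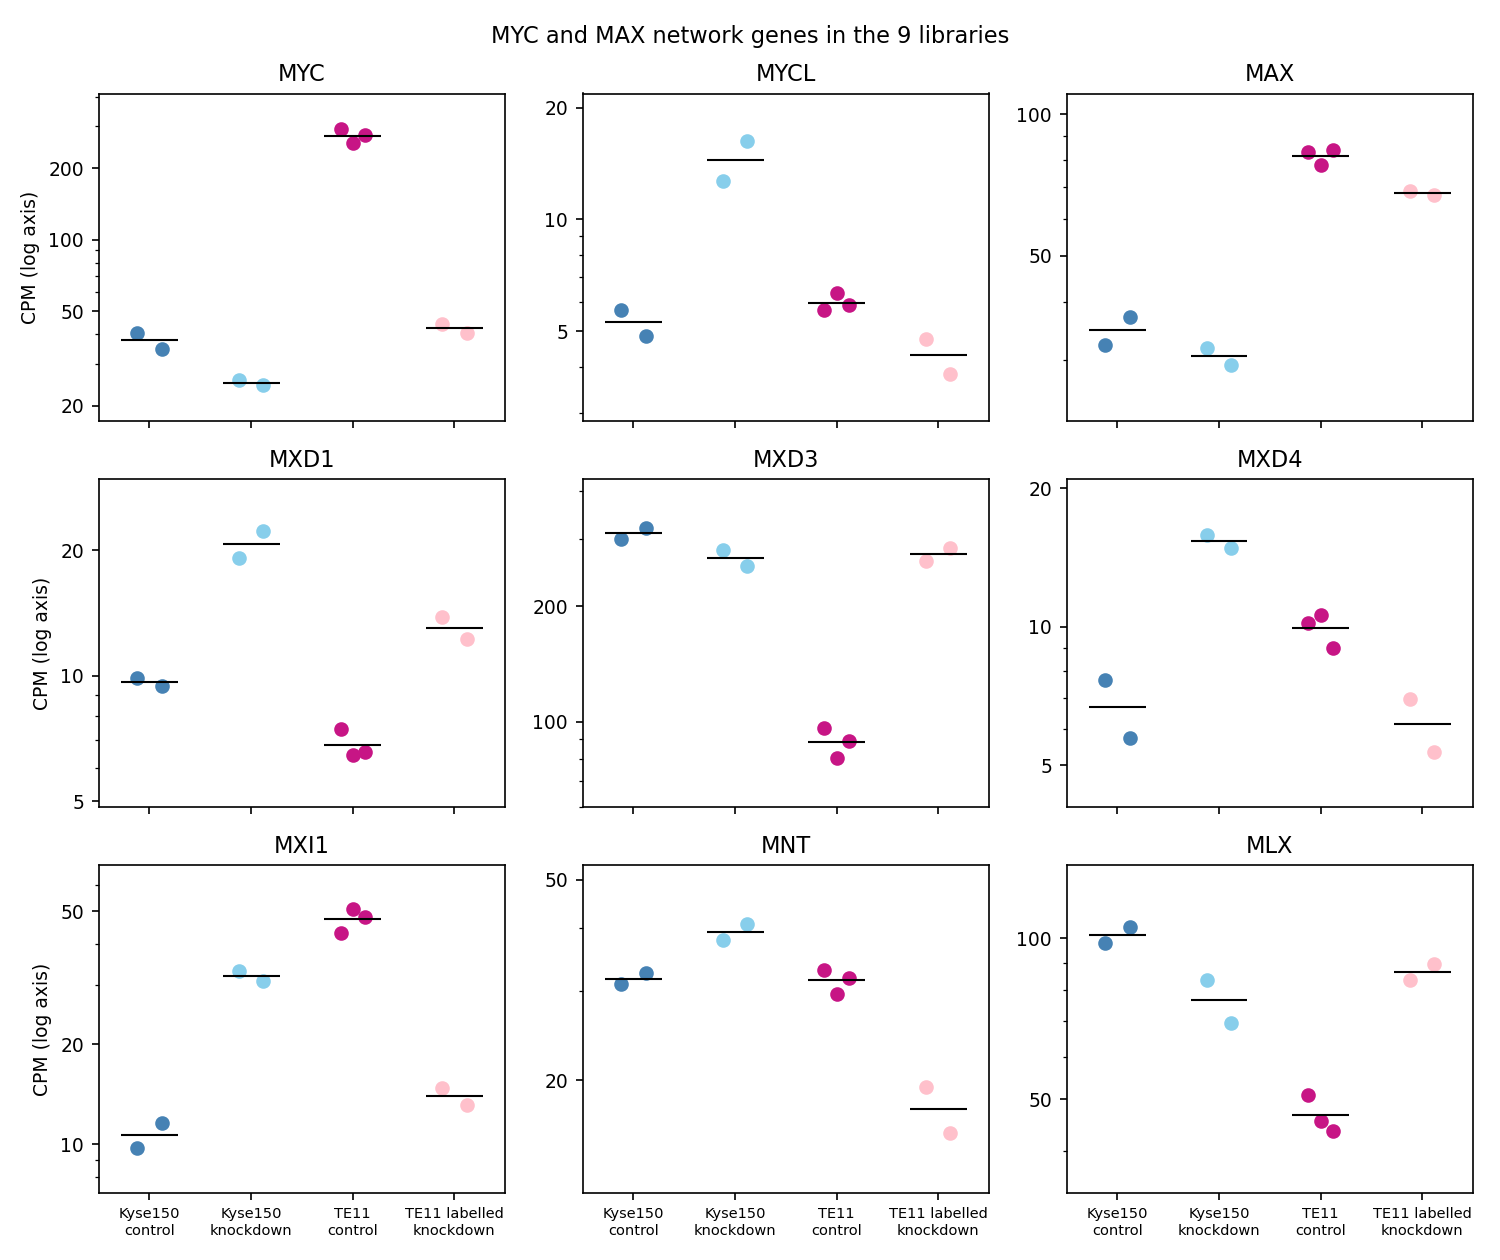
Level of 9 network genes in each library, in CPM (counts scaled to library size, log axis), with 1 point per library and a line at the group mean; MYCN is left out because it held 1 count in all. MYC reached 255 to 291 CPM in the TE11 controls and stayed at or under 44.2 CPM in the other 6 libraries.

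Among the MYC proteins, MYC (ENSG00000136997) is the general growth regulator. GENCODE release 29 places it on the plus strand of GRCh38 chromosome 8, positions 127735434 to 127741434. Its level was 40.4 and 34.8 CPM in the Kyse150 controls and 25.6 and 24.3 CPM in the knockdowns. The level was 291, 255 and 275 CPM in the TE11 controls and 44.2 and 40.4 CPM in the libraries labelled knockdown. The TE11 controls stood apart as high, the Kyse150 knockdowns and the libraries labelled TE11 knockdown lay under the controls of their line without overlap, and the latter overlapped the Kyse150 controls. The log2 fold change was -0.58 in Kyse150 (SE 0.13; edgeR adjusted p = 0.000452), to 0.668 of control. In TE11 it was -2.71 (SE 0.08; edgeR adjusted p = 6.56e-31), to 0.153 of control. The fall was larger in TE11, with a difference of the responses of -2.10 (SE 0.15; edgeR adjusted p = 6.9e-20).

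MYCL (ENSG00000116990), a MYC relative with a more restricted pattern across tissues, moved against MYC in Kyse150. It was at 5.70 and 4.86 CPM in the controls and at 12.7 and 16.3 CPM in the knockdowns, a rise of 1.45 in log2 (SE 0.22; edgeR adjusted p = 5e-06). Both knockdown libraries were above every other library. In TE11 MYCL was at 5.69, 6.34 and 5.87 CPM in the controls and at 4.77 and 3.84 CPM in the libraries labelled knockdown. These did not overlap, but the difference of -0.49 (SE 0.23) missed the threshold (edgeR adjusted p = 0.051). Leaving out control 1 brought it past (-0.53; edgeR adjusted p = 0.0492), as did RLE scaling, upper-quartile scaling and the stricter filter, and the alternatives gave adjusted p of 0.0288 to 0.316. The responses of MYCL in the lines differed by -1.92 (SE 0.32; edgeR adjusted p = 4.65e-07). MYCN, best known from neural tumours, held 0 counts in 8 libraries and 1 count in TE11 control replicate 1. A count of 0 allows a level of up to 0.248 to 0.496 CPM per library, for counting error only.

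MAX (ENSG00000125952), the shared partner of the activators and repressors, moved little. Its level was 32.4 and 37.2 CPM in the Kyse150 controls and 31.9 and 29.4 CPM in the knockdowns, and the difference of -0.17 (SE 0.12) did not pass (edgeR adjusted p = 0.254). The TE11 levels were 83.2, 77.9 and 84.0 CPM in the controls and 68.7 and 67.2 CPM in the libraries labelled knockdown, which is a log2 change of -0.28 (SE 0.08; edgeR adjusted p = 0.00142). MAX was thus higher in all 5 TE11 libraries than in any Kyse150 library. A difference between the 2 responses was not shown (-0.08, SE 0.14; edgeR adjusted p = 0.637).

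**Figure D2:**
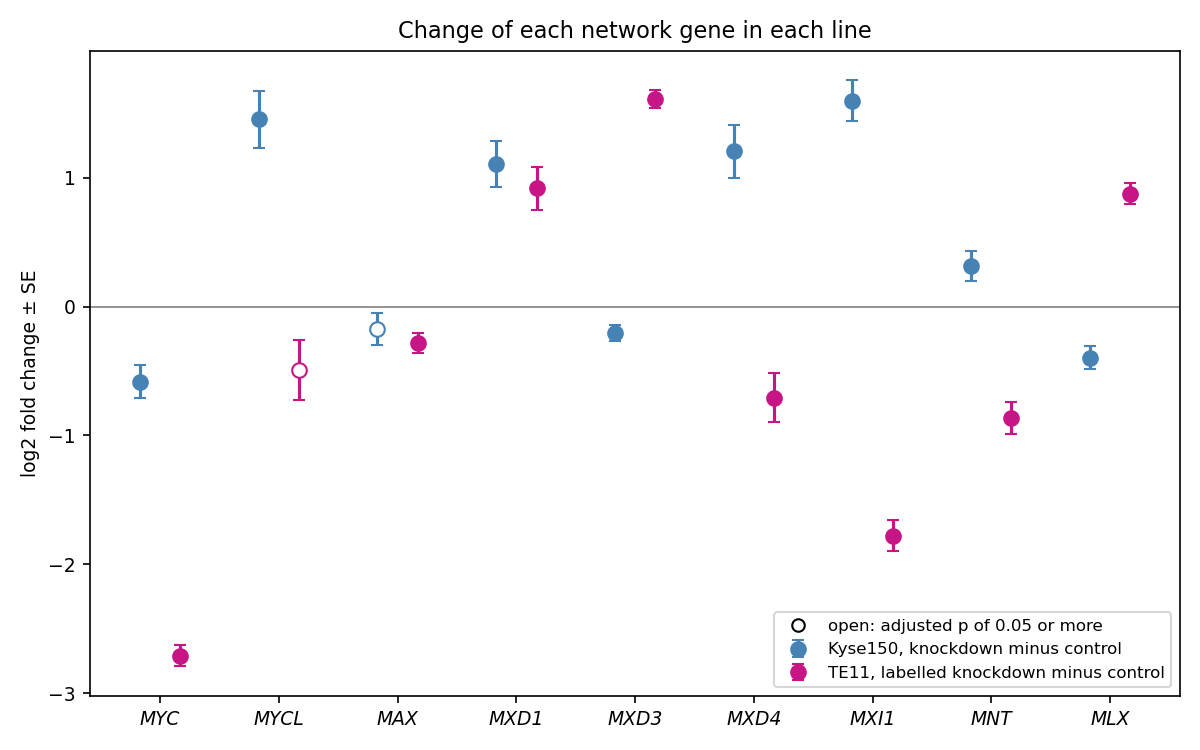
Log2 fold change of each of 9 network genes within each line, with bars of 1 SE; filled points have an edgeR adjusted p under 0.05. MYC lies below 0 and MXD1 above 0 in both lines, and MXI1 goes from 1.60 in Kyse150 to -1.78 in TE11.

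Among the repressors, MXI1 (ENSG00000119950) had the widest swing between the lines. Its level was 9.73 and 11.6 CPM in the Kyse150 controls and 33.2 and 31.0 CPM in the knockdowns. The TE11 levels were 43.1, 50.7 and 48.2 CPM in the controls and 14.8 and 13.1 CPM in the libraries labelled knockdown. The groups did not overlap in either line: MXI1 was high in the TE11 controls and the Kyse150 knockdowns and low in the other 4 libraries. It rose by 1.60 in Kyse150 on the log2 scale (SE 0.16; edgeR adjusted p = 4.45e-09) and fell by 1.78 in TE11 (SE 0.12; edgeR adjusted p = 6.61e-18). The difference of the responses was -3.35 (SE 0.20; edgeR adjusted p = 3.4e-23).

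MXD1 (ENSG00000059728), a repressor known to come on in differentiating cells, was higher under the KDM2A shRNA label in both lines. It was at 9.87 and 9.44 CPM in the Kyse150 controls and at 19.2 and 22.3 CPM in the knockdowns, up by 1.11 in log2 (SE 0.18; edgeR adjusted p = 9.41e-06). It was at 7.43, 6.43 and 6.57 CPM in the TE11 controls and at 13.8 and 12.2 CPM in the libraries labelled knockdown, up by 0.92 (SE 0.17; edgeR adjusted p = 5.54e-06). In neither line did a control library reach a library under the KDM2A shRNA label. The 2 responses differed by -0.17 (SE 0.25; edgeR adjusted p = 0.588), which does not show that they were alike.

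MXD4 (ENSG00000123933), another MAX-binding repressor, was at 7.64 and 5.72 CPM in the Kyse150 controls and at 15.9 and 14.8 CPM in the knockdowns, up by 1.20 in log2 (SE 0.21; edgeR adjusted p = 2.43e-05). The TE11 levels were 10.2, 10.6 and 8.98 CPM for control and 6.96 and 5.35 CPM in the libraries labelled knockdown, which gives -0.71 (SE 0.19; edgeR adjusted p = 0.00096). The groups were separate within each line, high in the Kyse150 knockdowns and low in the libraries labelled TE11 knockdown. Leaving out labelled knockdown 2 took the TE11 call away (-0.52; edgeR adjusted p = 0.0522). The responses differed by -1.89 (SE 0.28; edgeR adjusted p = 4.01e-08).

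MNT (ENSG00000070444), which is present in most cell types, was at 31.0 and 32.6 CPM in the Kyse150 controls and at 38.0 and 40.7 CPM in the knockdowns. The rise of 0.31 (SE 0.12; edgeR adjusted p = 0.0266) did not hold when 1 library was left out: the edgeR adjusted p was 0.141 for control 1, 0.0563 for control 2 and 0.151 for knockdown 2. Under DESeq2 the adjusted p was 0.176. In TE11 MNT was at 33.1, 29.6 and 32.0 CPM in the controls and at 19.4 and 15.7 CPM in the libraries labelled knockdown. The libraries labelled knockdown were the lowest of all 9, with a change of -0.86 (SE 0.12; edgeR adjusted p = 2.99e-08). The responses differed by -1.15 (SE 0.17; edgeR adjusted p = 3.12e-08). MNT shares 12.2% of its exon bases with an antisense gene, and no source used here gives the strand setting of the counting.

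MXD3 (ENSG00000213347), a repressor-type member known from dividing cells, held the most counts of the network outside the TE11 controls. It was at 299.6 and 320.1 CPM in the Kyse150 controls and at 281 and 254 CPM in the knockdowns. TE11 had 96.5, 80.2 and 88.8 CPM in the controls and 263 and 283 CPM in the libraries labelled knockdown. The TE11 controls were the low group, and the other 6 libraries lay within 254 to 320.1 CPM. The Kyse150 difference was -0.20 (SE 0.06; edgeR adjusted p = 0.00821), and it missed the threshold when control 2 (-0.16; edgeR adjusted p = 0.0897) or knockdown 2 (-0.13; 0.137) was left out. The TE11 difference was 1.61 (SE 0.07; edgeR adjusted p = 1.25e-24), and the responses differed by 1.84 (SE 0.10; edgeR adjusted p = 1.57e-24).

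The reads of MXD3 may be shared with its neighbours. It overlaps RAB24 over 17.97% of its exon bases on the same strand and PRELID1, a mitochondrial lipid-transfer protein, over 22.47% on the other strand. PRELID1 changed by -0.26 in Kyse150 (SE 0.06; edgeR adjusted p = 0.000465) and by 1.74 in TE11 (SE 0.06; edgeR adjusted p = 2.01e-28), the same directions as MXD3. Its mean level was 520.5 CPM in the Kyse150 controls, 433.3 in the knockdowns, 171.4 in the TE11 controls and 577.7 in the libraries labelled knockdown. RAB24 stayed at 1.63 to 3.95 CPM by group mean. The part of these overlaps in the MXD3 result was not tested, so MXD3 values are uncertain.

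MLX (ENSG00000108788), the MAX-like partner, was at 98.0 and 105 CPM in the Kyse150 controls and at 83.6 and 69.3 CPM in the knockdowns, down at -0.40 in log2 (SE 0.09; edgeR adjusted p = 0.000538). TE11 had 50.9, 45.4 and 43.6 CPM for control and 83.6 and 89.4 CPM for the libraries labelled knockdown, up by 0.88 (SE 0.08; edgeR adjusted p = 6.63e-13). The groups of each line were separate, and the TE11 controls were the lowest 3 libraries of the 9. The responses differed by 1.30 (SE 0.12; edgeR adjusted p = 4.46e-14). The antisense neighbour PSMC3IP covers 18.08% of the exon bases of MLX and changed by -0.25 (SE 0.11; edgeR adjusted p = 0.0712) in Kyse150 and by 0.40 (SE 0.11; edgeR adjusted p = 0.000987) in TE11. Its part in the MLX result was not tested.

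3 further network factors outside the list were followed. MGA, a large MAX-binding repressor, was at 43.1 and 40.6 CPM in the Kyse150 controls, 39.4 and 42.5 in the knockdowns, 22.1, 27.4 and 26.1 in the TE11 controls and 76.6 and 74.6 in the libraries labelled knockdown. It rose in TE11 by 1.57 (SE 0.09; edgeR adjusted p = 1.1e-19) and overlapped between the Kyse150 groups. MLXIP (MondoA), a glucose-sensing partner of MLX, rose in TE11 by 0.90 (SE 0.08; edgeR adjusted p = 2.95e-13), and its Kyse150 difference was 0.00 (SE 0.08). MLXIPL (ChREBP), its relative of liver and fat, held 527 counts in the TE11 controls and 2 in the libraries labelled knockdown. That is a scaled ratio of 132 with a 95% counting interval of 36.4 to 1093.

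TXNIP and ARRDC4, arrestin-like genes that MLX and its partners are known to switch on, did not move together. TXNIP held 995, 1047 and 1136 counts in the TE11 controls and 0 in both libraries labelled knockdown, at least 536-fold lower against a floor of 3 counts over the group. Of 290 identifiers found only in the TE11 table with 50 or more counts in every control, 287 held counts in the libraries labelled knockdown, and TXNIP was 1 of the 3 that did not. TXNIP was not analysed in Kyse150, where its identifier is not listed. ARRDC4 differed by -0.05 in Kyse150 (SE 0.16; edgeR adjusted p = 0.836) and by -0.04 in TE11 (SE 0.11; edgeR adjusted p = 0.744).

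The make-up of the network was compared between genes as CPM per kb of exon, since longer genes collect more reads. In the Kyse150 controls the order of levels was MXD3 at 60.1 ± 2.81 CPM per kb (SD, n = 2), MLX at 23.8 ± 1.14, MYC at 12.5 ± 1.34, MAX at 7.85 ± 0.767, MNT at 3.64 ± 0.131, MXI1 at 2.31 ± 0.285, MXD1 at 1.52 ± 0.0476, MYCL at 1.04 ± 0.117 and MXD4 at 0.947 ± 0.193. MYCL and MXD4 overlapped. In the Kyse150 knockdowns the levels per kb were 51.9 ± 3.72 for MXD3, 18.0 ± 2.38 for MLX, 8.32 ± 0.302 for MYC, 6.96 ± 0.34 for MXI1, 6.91 ± 0.397 for MAX, 4.51 ± 0.225 for MNT, 3.26 ± 0.341 for MXD1, 2.86 ± 0.504 for MYCL and 2.17 ± 0.101 for MXD4 (SD, n = 2). MXI1 overlapped MAX there, and MXD1 overlapped MYCL.

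In the TE11 controls MYC led at 91.1 ± 6.04 CPM per kb (SD, n = 3), followed by MAX at 18.4 ± 0.739, MXD3 at 17.2 ± 1.58, MLX at 10.95 ± 0.896, MXI1 at 10.3 ± 0.832, MNT at 3.62 ± 0.204, MXD4 at 1.41 ± 0.119, MYCL at 1.18 ± 0.0665 and MXD1 at 1.07 ± 0.0856. MAX overlapped MXD3, MLX overlapped MXI1, and MYCL overlapped MXD1. The place of MXD3 depends on the length used: per kb of longest transcript it was at 35.2 to 42.3 CPM in the TE11 controls, above MAX at 24.7 to 26.6 without overlap. In the libraries labelled knockdown MXD3 led at 53.0 ± 2.80 (SD, n = 2), with MLX at 20.3 ± 0.974, MAX at 15.3 ± 0.23, MYC at 14.1 ± 0.912, MXI1 at 3.03 ± 0.252, MXD1 at 2.05 ± 0.178, MNT at 2.01 ± 0.302, MXD4 at 0.872 ± 0.162 and MYCL at 0.85 ± 0.129. MXD1 overlapped MNT and MXD4 overlapped MYCL, and by longest transcript MNT (mean 3.52) was above MXD1 (mean 2.33) without overlap.

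**Figure D3:**
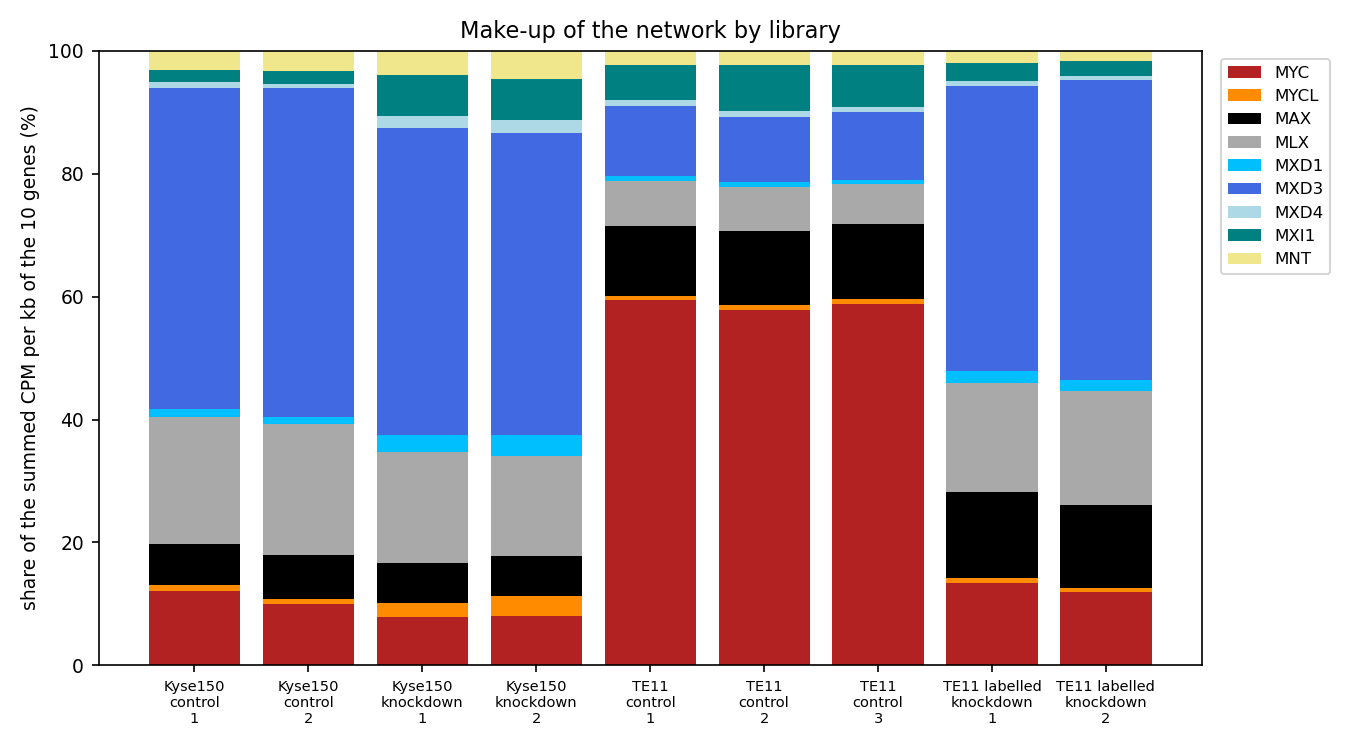
Share of each network gene in the summed CPM per kb of the 10 genes, in percent, with 1 bar per library; MYCN is too low to draw. MYC makes up 57.8% to 59.4% in the TE11 controls and 7.81% to 13.3% in the other 6 libraries, where MXD3 makes up 46.2% to 53.4%.

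As a share of the summed level per kb of the 10 genes, MYC took 58.7% ± 0.792 (SD, n = 3) among TE11 controls and 12.6% ± 0.999 (SD, n = 2) among the libraries labelled knockdown. Among Kyse150 controls it took 11.03% ± 1.51 and among the knockdowns 7.94% ± 0.178 (SD, n = 2 each). With MXD3 left out of the sum, because of its overlap with PRELID1, MYC was 65.96%, 24.1%, 23.4% and 15.7% in that order. Per kb there were 5.18, 5.46 and 5.31 MYC transcripts for each MXD3 in the TE11 controls, and 0.289 and 0.245 in the libraries labelled knockdown. In Kyse150 the ratio was 0.232 and 0.186 for control and 0.156 and 0.164 for knockdown. By longest transcript each ratio is 0.561 of these values, so it was 2.91, 3.06 and 2.98 in the TE11 controls and 0.0877 to 0.162 in the other 6 libraries. With either length, the TE11 controls were the 3 libraries with more MYC than MXD3.

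Set against the Kyse150 controls, 4 of 9 members were higher in the TE11 controls and 3 were lower, with 79.7% of all genes called, 43.7% higher and 36% lower. MYC was 7.27-fold higher (log2 2.86, SE 0.08; edgeR adjusted p = 1.55e-38). MXI1 was 4.44-fold and MAX 2.35-fold higher, and MXD3 and MLX were at 0.286 and 0.46 of the Kyse150 level. MXD4 was higher by 0.57 and MXD1 lower by a log2 difference of -0.50, but MXD4 did not pass when Kyse150 control 2 was left out (0.38; edgeR adjusted p = 0.157), nor MXD1 when control 1 was (-0.47; edgeR adjusted p = 0.0737). MNT (-0.01) and MYCL (0.18) did not pass. The lines were counted on different gene annotations, which touches every such level set across them.

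The libraries labelled TE11 knockdown were also set against the Kyse150 controls, and they share those controls and their own libraries with the comparisons above. 2 of 9 members were higher (MAX and MXI1) and 3 were lower (MNT, MLX and MXD3), with 53.6% of all genes called, 29.1% higher and 24.5% lower. MYC differed by 0.17 (SE 0.10; edgeR adjusted p = 0.171). MAX was higher by 0.97 (SE 0.10; edgeR adjusted p = 2.6e-12) and MNT lower at -0.86 (SE 0.13; edgeR adjusted p = 1.81e-07). The call of MXI1 (0.39; edgeR adjusted p = 0.047) went when Kyse150 control 1 (edgeR adjusted p = 0.299) or labelled knockdown 1 (0.225) was left out, and under 6 other alternatives. MLX (-0.23; edgeR adjusted p = 0.0265) and MXD3 (-0.18; edgeR adjusted p = 0.0251) were lost in the same way with Kyse150 control 2 (0.224 and 0.268) or labelled knockdown 1 (0.228 and 0.2996) left out, and without the filter on low counts (0.0565 and 0.0581).

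A list of 65 genes that MYC is known to activate was read beside the network. In Kyse150, 50 of 63 tested were lower in the knockdown and 2 were higher, with a median log2 fold change of -0.43 against 0.00 over all genes tested, of which 23.3% were lower and 24.8% higher. In TE11, 49 of 63 were higher in the libraries labelled knockdown and 10 were lower, with a median of 0.72 against -0.09 over all genes, of which 35.9% were higher and 42.2% lower. MYC itself was lower in both. Of the 62 targets tested in both lines, 42 were lower in Kyse150 and higher in TE11, where 15.2% of all genes tested in both were. 1 target went the reverse way, higher in Kyse150 and lower in TE11, where 13.7% of all genes did. Another 4 were lower in both (FBL, HSPD1, PLK4 and TMEM97) and 1, TBRG4, was higher in both. Of all genes, 4.69% were lower in both and 6.47% higher in both, so the 4 targets lower in both are near that share. The 5 targets that moved the same way in both lines were named after their values were seen. HSPD1 has 18 annotated pseudogenes, so its counts may be shared with near-identical copies. The call was lost under at least 1 alternative for FBL and TBRG4 in Kyse150 and for PLK4 in TE11. The median difference of the responses was 1.248 against -0.06 over all genes. The difference was called higher for 53 of 64 targets and lower for 5, against 33.8% and 33.1% of all genes. In the TE11 controls, 15 of 64 were higher than in the Kyse150 controls and 42 lower (median -0.59 against 0.12). Of all genes, 43.7% were higher there and 36% lower. In the libraries labelled TE11 knockdown, 23 of 64 were higher than in the Kyse150 controls and 13 lower (median 0.05 against 0.00). Of all genes, 29.1% were higher there and 24.5% lower. NOP2 entered these 64 through Kyse150 alone, with a mean of 235 CPM in its controls. It held 7 counts in the TE11 controls and 10 in the libraries labelled knockdown. DUSP2 entered through the TE11 controls alone, with 201 counts there and 0 elsewhere. Directions that rest on those groups were fixed in advance for both genes, also for DUSP2 within TE11. Both were named after their values were seen, and the cause was not tested.

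**Figure D4:**
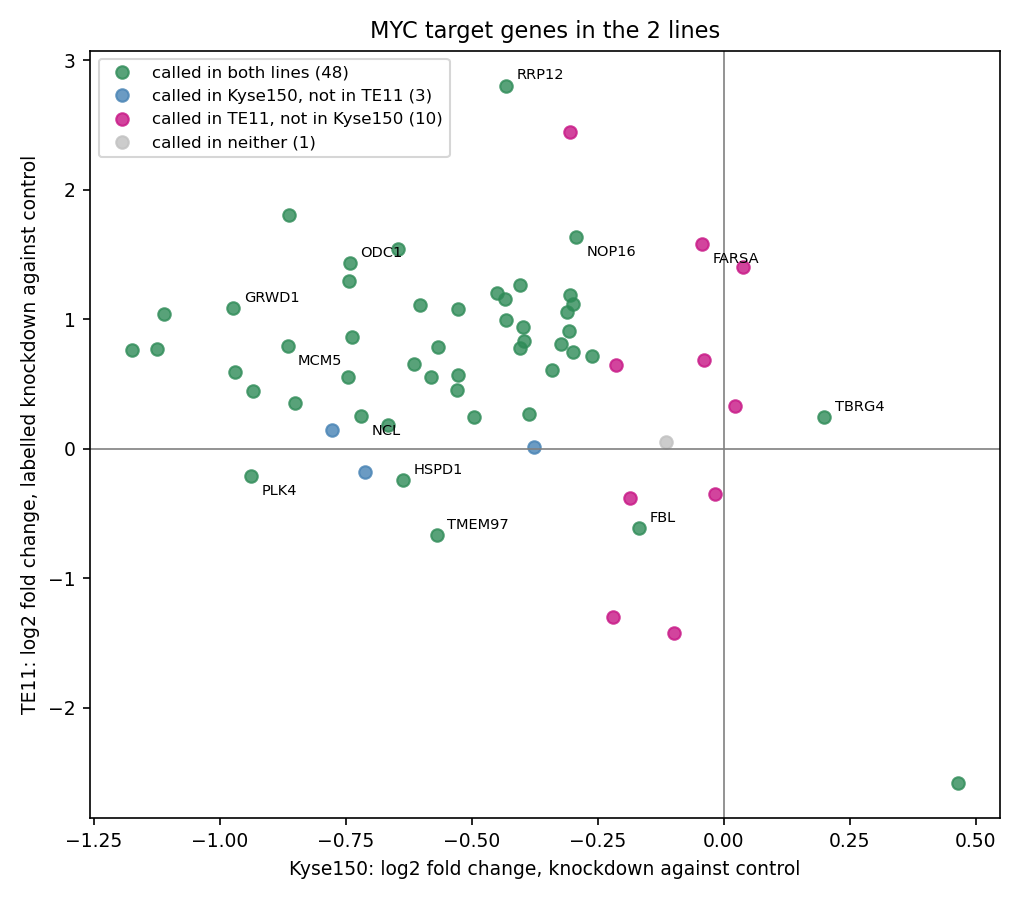
Log2 fold change of 62 MYC target genes in Kyse150 (x axis) and TE11 (y axis), coloured by the lines in which edgeR called them. Of the 48 called in both lines, 42 lie at upper left, lower in Kyse150 and higher in TE11.

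The targets given by name were those with the smallest p in each line, so their values describe that choice. Genes with 3 or more annotated pseudogenes were left out of it. ODC1, the first enzyme of polyamine synthesis, was at 299.4 and 299.7 CPM in the Kyse150 controls, 183 and 173 in the knockdowns, 178, 172 and 173 in the TE11 controls and 483 and 468 in the libraries labelled knockdown. It went to 0.598 of control in Kyse150 (edgeR adjusted p = 1.19e-10) and to 2.7-fold in TE11 (edgeR adjusted p = 1.47e-25). RRP12, a ribosome export factor, was at 35.5, 32.98 and 38.2 CPM in the TE11 controls and 247 and 256 in the libraries labelled knockdown, which is 6.99-fold (edgeR adjusted p = 5.45e-33). In Kyse150 RRP12 was at 227 and 238 CPM for control and 177 and 166 for knockdown (log2 -0.43, SE 0.06; edgeR adjusted p = 3.45e-06). In Kyse150 the nucleolar protein NCL went to 0.607 of control, the ribosome assembly factor GRWD1 to 0.51 and the replicative helicase subunit MCM5 to 0.549. In TE11 the ribosome biogenesis gene NOP16 went to 3.11-fold, with 0.817 of control in Kyse150, and FARSA, a subunit of phenylalanyl-tRNA synthetase, to 3-fold; FARSA differed by -0.04 in Kyse150 and did not pass.

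Genes that MYC is known to repress went the other way. Of 9 listed, 5 of 6 tested rose in Kyse150, and in TE11 7 of 8 tested fell and 1 rose. In TE11, NDRG2 passed the filter through the controls alone, so its call could only be lower. CDKN2B passed mainly through the libraries labelled knockdown, with 112 counts there and 22 in the controls. Both enter the TE11 counts and median given here. Over all genes 24.8% were higher in Kyse150, and 42.2% lower and 35.9% higher in TE11. The exception in both lines was CDKN2B, a kinase inhibitor named here after its values were seen. It was at -0.18 in Kyse150 (edgeR adjusted p = 0.442) and 3.30 in TE11 (edgeR adjusted p = 1.48e-11). CDKN2B was low in the TE11 controls, at 0.453 to 0.864 CPM and 22 counts in all. In the libraries labelled knockdown it was at 5.13 to 8.14 CPM. The median log2 change was 1.05 in Kyse150 and -1.49 in TE11, against 0.00 and -0.09 over all genes. NDRG1, a stress- and differentiation-responsive gene, was at 36.3 and 40.9 CPM in the Kyse150 controls, 292 and 276 in the knockdowns, 423, 412 and 398 in the TE11 controls and 49.5 and 49.9 in the libraries labelled knockdown. It was 7.4-fold higher in the Kyse150 knockdowns (edgeR adjusted p = 8.74e-21) and at 0.12 of control in TE11 (edgeR adjusted p = 1.65e-34). CCNG2, a cyclin of resting cells, was 4.61-fold higher and then at 0.358, and HBP1, a cell-cycle repressor, was 2.77-fold higher and then at 0.355. GADD45A, a DNA damage gene, rose 1.45-fold in Kyse150; its TE11 change of -0.29 (edgeR adjusted p = 0.00544) missed the threshold with labelled knockdown 2 left out (edgeR adjusted p = 0.07199). CEBPA, a differentiation factor, was at 0.292 of control in TE11, and NDRG2 held 198 counts in the TE11 controls and 0 in the libraries labelled knockdown, at least 33.1-fold lower. NDRG2 was also at 0 in the Kyse150 libraries.

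Regulators of MYC protein, which act on its turnover and phosphorylation, numbered 20. In Kyse150, 2 rose and 9 fell, with a median of -0.17, and in TE11 14 rose and 3 fell, with a median of 0.31. The share called was 55% in Kyse150 and 85% in TE11, near the 48.2% and 78.1% of all genes. The number called in either direction is thus not a result about this list. By direction, the 9 of 20 lower in Kyse150 stand beside 23.3% of all genes, and the 2 higher beside 24.8%. In TE11 the 14 of 20 higher stand beside 35.9%, and the 3 lower beside 42.2%. CIP2A, which shields MYC from the phosphatase PP2A, went to 0.593 of control in Kyse150 and to 2.01-fold in TE11. PPP2CA, a catalytic subunit of PP2A, went to 0.657 and to 1.22-fold. The kinase PLK1, which is also on the target list, went to 0.741 and to 2.23-fold. PPP2R5A, a PP2A subunit that directs it to MYC, went to 3.67-fold in TE11 and differed by -0.04 in Kyse150. The deubiquitinase USP36 went to 0.772 and to 2.3-fold. SKP2, a ubiquitin ligase subunit, went to 0.747 in Kyse150; its TE11 change of 0.22 (edgeR adjusted p = 0.0055) did not pass with control 3 left out (edgeR adjusted p = 0.0789) or with the replicate number as a block (0.18; edgeR adjusted p = 0.0692).

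Cofactors of MYC and of the MXD repressors numbered 24. In Kyse150, 1 rose and 10 fell, with a median of -0.14, and in TE11 12 rose and 7 fell, with a median of 0.19. That is 45.8% and 79.2% of the list called in either direction, again near the 48.2% and 78.1% of all genes. By direction, 23.3% of all genes were lower and 24.8% higher in Kyse150, and 35.9% were higher and 42.2% lower in TE11. HCFC1, a MYC-binding chromatin factor, went to 0.595 of control in Kyse150 (edgeR adjusted p = 6.66e-11) and to 2.72-fold in TE11 (edgeR adjusted p = 1.42e-23). ACTL6A, an actin-like subunit of chromatin complexes, went to 0.621 and to 1.32-fold, and WDR5, which helps MYC onto chromatin, to 0.747 and to 1.75-fold. The acetyltransferase CREBBP went to 0.758 and to 2.13-fold, and EP400 to 2.28-fold in TE11 with 0.04 in Kyse150, which did not pass. HDAC2, a deacetylase of the SIN3 complexes, went to 0.678 in Kyse150; its TE11 change of -0.23 (edgeR adjusted p = 0.00128) did not pass with labelled knockdown 1 left out (edgeR adjusted p = 0.0741). The E-box was present before the start of 17 of 52 matched MYC targets (32.69%), 4 of 14 regulators and 3 of 19 cofactors, against 7.728% of 27305 genes.

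The genes whose pattern over the 9 libraries was most like that of MYC were KRT13 (Pearson r 0.997), ENSG00000261604 (0.996), YBX1 (0.995) and RAD21-AS1 (0.995), of 10304 genes with a mean of 10 CPM or more. KRT13 is a keratin of squamous mucosa and YBX1 an RNA-binding protein. The correlations rest on log2(CPM + 1) and on libraries that share their line, and each of these 4 genes, like MYC, was highest in the TE11 controls. By Spearman's rank correlation, 0 of the 4 were among the top 4. Within the network, the correlation with MYC was 0.820 for MAX, 0.669 for MXI1, 0.0472 for MNT, -0.850 for MXD1, -0.877 for MLX and -0.964 for MXD3. MYCN, MYCL and MXD4 had a mean under 10 CPM and were left out. The value of MXD3 carries its possible sharing of reads with PRELID1.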

How the data were processed

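Gene counts from 9 bulk RNA libraries of 4 groups, taken from the sample titles, were analysed. The deposited values are whole-number counts per gene, made by the authors in 1 table per line and not normalized. Per the submitters' processing notes, HISAT2 2.1.0 (alignment tool), HTSeq 0.9.1 (counting tool), bcl2fastq 2.19 and DESeq2 were used. These notes list 2 builds, GRCh38.p13 and GRCh37.p13, and assign neither to a table. The tables hold 57820 (Kyse150) and 60683 (TE11) identifiers. Between 42.3% and 44.5% of a library was assigned to no gene feature by the counting and was left out, with the other summary lines. Such reads can still lie within genes. No source used here gives the strand setting.

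Genes kept by filterByExpr (minimum count 10, minimum total 15) were scaled by TMM and tested within each line with edgeR 4.0.16 in R 4.3.3 (quasi-likelihood fit with robust dispersions, a term for group alone, Benjamini-Hochberg adjustment over all genes tested, threshold 0.05). Comparisons across lines came from 1 fit of all 9 libraries over shared identifiers. Levels are CPM on 1 TMM scaling of all libraries, per kb of GENCODE release 29 exon union where genes are compared. Bounds use 3 counts, and counting intervals are 95%; fragments are not independent molecules, so both cover counting error only.

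The members and gene lists were chosen with earlier results of these data known. Named genes are KDM2A, the members, MGA, MLXIP, MLXIPL, TXNIP, ARRDC4 and the 4 genes most like MYC. From each other list they are the 4 with the smallest p per line. Genes with 3 or more annotated pseudogenes were left out there, to avoid near-identical copies. FBL, HSPD1, PLK4, TMEM97, TBRG4, CDKN2B, NOP2 and DUSP2 were also named, outside this rule and after their values were seen. Replicate pairs differed by more than counting noise (chi-square per degree of freedom 1.62 to 4.92). The alternatives changed the tool (DESeq2 1.42.0), the scaling (2 others), the filter (2 others), the block (replicate number), the libraries in the fit (all, or one fewer) and the length (longest transcript). Leaving MXD3 out of the network's sum and a crossed replicate block in Kyse150 were added after seeing the data.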

Additional observations from a re-analysis of the deposited data

Results flagged for a closer look

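The response to the KDM2A shRNA label differed between the lines for 35 of the genes named by the rule above. This is by edgeR's test of the difference itself (TE11 minus Kyse150, log2 scale, adjusted p under 0.05). With 66.9% of all genes called in that test, a difference is common in these libraries, and KDM2A itself was among them at 0.90. Apart from KDM2A, the members and the further network factors, the genes were picked by the smallest p within a line. That choice came from the same libraries, so the number called describes it and is not a result. Within the network it was -2.10 for MYC, -1.92 for MYCL, 1.84 for MXD3, -1.89 for MXD4, -3.35 for MXI1, -1.15 for MNT and 1.30 for MLX. The further network factors gave 1.62 for MGA, 0.92 for MLXIP and -7.34 for MLXIPL, whose fitted value rests on 2 counts in the libraries labelled knockdown.

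Among regulators of MYC protein the difference was 0.91 for PPP2CA, 1.79 for CIP2A, 1.62 for PLK1, 0.66 for SKP2, 1.94 for PPP2R5A and 1.60 for USP36. Among cofactors it was 2.22 for HCFC1, 1.11 for ACTL6A, 0.36 for HDAC2, 1.248 for WDR5, 1.17 for EP400 and 1.51 for CREBBP. The MYC targets gave 0.996 for NCL, 2.08 for GRWD1, 1.68 for MCM5, 2.20 for ODC1, 3.26 for RRP12, 1.95 for NOP16 and 1.65 for FARSA. The genes repressed by MYC gave -5.93 for NDRG1, -3.67 for CCNG2, -2.94 for HBP1, -0.80 for GADD45A and -3.72 for CEBPA, which has few counts in Kyse150.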

How the results depend on the processing

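No alternative reversed the direction of a called value. For the 9 members, 102 of 108 alternative values in Kyse150 and 103 of 108 in TE11 kept their side of the threshold, as did 135 of 135 for the difference of the responses, 97 of 99 between the controls and 76 of 90 between the libraries labelled TE11 knockdown and the Kyse150 controls. The count of MYC targets higher in Kyse150 went from 2 to 0 under DESeq2 and to 0 to 2 with a library left out. Between the libraries labelled TE11 knockdown and the Kyse150 controls, the count of members higher went from 2 to 1 under RLE scaling, upper-quartile scaling, no filter, the stricter filter and DESeq2, and to 1 to 2 with a library left out. There the count of members lower went from 3 to 1 without the filter and to 1 to 3 with a library left out. With a library left out, members higher and lower ranged over 4 to 5 and 2 to 3 in Kyse150, 3 to 3 and 4 to 6 in TE11, 2 to 2 and 5 to 5 for the difference of the responses, and 3 to 4 and 2 to 3 between the controls. MYC targets ranged over 46 to 50 lower in Kyse150, 48 to 49 higher and 9 to 10 lower in TE11, 53 to 54 and 5 to 6 for the difference, 14 to 16 and 41 to 43 between the controls, and 19 to 22 and 9 to 13 against the Kyse150 controls. The cause of these moves was not tested. A group left with 1 library is assumed to vary like the others. DESeq2 called 4337 genes in Kyse150 where edgeR called 6771. Upper-quartile scaling moved the median difference of the responses over all genes from -0.06 to -0.18. With the longest transcript as length, MYC was 51.6% of the network in the TE11 controls, MXD3 still led in the other groups and passed MAX in the TE11 controls, and the ratio of MYC to MXD3 in the TE11 controls went from 5.18 to 5.46 down to 2.91 to 3.06. Low counts limit MYCN, MYCL, MXD4, MLXIPL, CEBPA and, in the TE11 controls, CDKN2B.

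With the replicate number as a block, the members gave 5 higher and 3 lower in Kyse150 and 3 and 5 in TE11, and the MYC targets 49 lower in Kyse150 and 49 higher in TE11. Between the libraries labelled TE11 knockdown and the Kyse150 controls the block gave 1 member higher in place of 2, as MXI1 was lost. In TE11 it also ended the calls of KDM2A and SKP2. Deviations of libraries with the same number correlated at -0.19 in Kyse150 and -0.02 in TE11, so the numbers were not taken to pair libraries. With the Kyse150 numbers crossed, 5 members were higher and 3 lower, and 52 MYC targets were lower.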
